A study of Mus musculus with 12 samples.

Results

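Small leucine-rich proteoglycans are secreted matrix proteins with a short core of leucine-rich repeats, and 7 genes of this family were followed here, namely Fmod (fibromodulin), Bgn (biglycan), Ogn (osteoglycin), Prelp, Dcn (decorin), Lum (lumican) and Aspn (asporin). They were chosen by gene name from the 55862 genes of a mouse brain RNA-seq table and selected with the fold changes of FPKM between A-iSCs and ASTs already known, so their levels in those groups are given as a description with no test. RNA was measured in 12 mouse samples, with 3 samples in each of 4 groups. The labels give the strain C57BL/6 for all of them, and the study's methods give C57BL/6J for the mice behind both NPC groups. ASTs were cortical astrocytes of newborn pups, taken after the meninges had been stripped and grown as a monolayer in serum (day 0 of incubation), and A-iSCs were the same kind of cells after 5 days as floating spheres on agarose. P56-NPCs were cells freshly dissociated from the subependymal zone of adults (postnatal day 56), and P0-NPCs were cells of the hippocampus of newborns (postnatal day 0). The suspensions were made by different protocols, with a cell strainer and several spins for P56-NPCs and with trypsin and a single spin for P0-NPCs. Neither NPC suspension is described as sorted, so both may hold several cell types, and no label ties a sample to an animal or says whether animals were pooled. P-values therefore measure only the spread between these samples, which may be technical.

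In connective tissue these proteins bind collagen fibrils and set how the fibrils assemble, and several of them also hold growth factors such as TGF-beta in the matrix. Decorin and biglycan carry chondroitin or dermatan sulfate chains, fibromodulin, lumican and osteoglycin can carry keratan sulfate, and asporin carries no such chain. In the brain, decorin and lumican are best known from fibroblasts of the meninges and of the perivascular space, whereas astrocytes in culture are known to secrete several matrix proteins of this kind.

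Each sample held between 17077780 and 24452419 fragments. The floor of detection was set at 3 fragments, which for a 1 kb gene is 0.103 to 0.187 FPKM depending on the sample. FPKM is the number of sequenced fragments per kilobase of gene length and per 1e6 fragments of the library. Floors cover counting error only. All 8 astrocyte markers were above the floor in all samples. Their summed FPKM was lowest in ASTs at 156 to 177. It was 254 to 317 in P0-NPCs, 1237 to 2512 in A-iSCs and 2403 to 2631 in P56-NPCs, where the last 2 groups overlapped. The summed FPKM of 6 oligodendrocyte markers was 10916 to 12477 in P56-NPCs and at most 25.3 in the other groups. The 7 neural progenitor markers were above the floor in all samples, and their sum was lower in P56-NPCs (114 to 149 FPKM) and P0-NPCs (147 to 157 FPKM) than in A-iSCs (295 to 354 FPKM) and ASTs (369 to 390 FPKM). Genes of the mitochondrial genome took 16.5 to 17.6% of the fragments in P56-NPCs and 2.94 to 7.03% elsewhere. The authors' values were already scaled between samples, and scaling by library size in its place changed the split of genes called higher and lower from 3550 and 4165 to 4563 and 2989 in A-iSCs against ASTs, from 4532 and 4643 to 8329 and 2857 in A-iSCs against P56-NPCs, and from 6115 and 6011 to 3438 and 9428 in P56-NPCs against P0-NPCs. The median log2 fold change of all genes moved with it from -0.06 to 0.13, from 0.03 to 0.49 and from 0.01 to -0.53. These are bulk samples, in which fewer cells of a type and less RNA per cell cannot be told apart.

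The members lie at 4 places of the mouse genome (GRCm38). Fmod is at chr1:134037254-134048277 on the plus strand, and Prelp is the next protein-coding gene on one side of it, at chr1:133910304-133921414 on the minus strand, 115.8 kb away. Dcn (chr10:97479609-97518143) and Lum (chr10:97565128-97572703) lie 46.98 kb apart on the plus strand. Aspn (chr13:49544443-49567565) and Ogn (chr13:49608046-49624501) share a cluster with their relatives Ecm2 and Omd, and Bgn is at chrX:73483602-73495933, all 3 on the plus strand. Of the members, 5 have an entry in the RefSeq promoter table of build GRCm38.p6, and Dcn and Lum have none. The 250 bases before the RefSeq start site are printed for the neighbours Fmod and Prelp, which differed in the order of the groups, and for Bgn and Ogn, whose levels followed those of Fmod. All are written 5′ to 3′ on the strand of the gene. Capitals mark CAGAC on either strand (GTCTG on the printed one), the letters that SMAD proteins, the transcription factors of TGF-beta signalling, are known to bind.
Fmod, chr1:134037004-134037253, plus strand: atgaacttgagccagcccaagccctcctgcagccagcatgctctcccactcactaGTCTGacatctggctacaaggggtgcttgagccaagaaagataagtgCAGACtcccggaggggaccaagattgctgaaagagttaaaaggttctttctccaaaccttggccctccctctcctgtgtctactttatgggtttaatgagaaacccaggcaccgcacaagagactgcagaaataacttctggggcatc
Prelp, chr1:133921402-133921651, minus strand: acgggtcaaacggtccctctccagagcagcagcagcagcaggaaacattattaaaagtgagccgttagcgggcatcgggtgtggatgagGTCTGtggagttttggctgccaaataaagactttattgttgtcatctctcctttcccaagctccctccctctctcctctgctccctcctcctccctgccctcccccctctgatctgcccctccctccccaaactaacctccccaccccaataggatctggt
Bgn, chrX:73483351-73483600, plus strand: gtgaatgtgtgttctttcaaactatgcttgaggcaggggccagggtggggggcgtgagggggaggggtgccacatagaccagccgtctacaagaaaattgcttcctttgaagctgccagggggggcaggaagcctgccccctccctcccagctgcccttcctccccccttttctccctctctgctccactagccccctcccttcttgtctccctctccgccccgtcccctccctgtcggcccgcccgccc
Ogn, chr13:49607765-49608014, plus strand: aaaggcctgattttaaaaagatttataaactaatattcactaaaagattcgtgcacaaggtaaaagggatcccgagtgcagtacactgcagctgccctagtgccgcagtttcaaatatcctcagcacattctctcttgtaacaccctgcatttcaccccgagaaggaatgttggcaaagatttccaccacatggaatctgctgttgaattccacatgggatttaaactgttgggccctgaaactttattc

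CAGAC stood 2 times before Fmod and 1 time before Prelp, and not in these windows of Bgn, Ogn and Aspn. It was present in 42.2% of the 32851 promoter windows of the same length, so a match in 2 of 5 members was close to that share. Of the other motifs searched on both strands, TATAAA was found before Ogn and Aspn (12.4% of all windows), CCAAT before Prelp and Aspn (33.8%) and GGAATG before Ogn (12.6%). CANNTG was found before Fmod, Bgn, Ogn and Aspn (66.2%), and TGANTCA before none of the 5 (6.75%). The start site of Prelp in RefSeq is 13 bases inside the gene as placed in the table, and that of Ogn is 31 bases before it. A match is a run of letters and not a measured binding site.

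Fmod, Bgn and Ogn were highest in ASTs, followed by P0-NPCs, A-iSCs and P56-NPCs. Fibromodulin, which binds type I collagen fibrils, was the most abundant member in ASTs, where Fmod measured 237, 218 and 232 FPKM in the 3 samples (229 ± 9.99, SD, n = 3) and ranked 198 among the 21926 protein-coding genes of the table. In A-iSCs the values were 4.82, 4.59 and 3.49 FPKM (4.30 ± 0.712). All ASTs lay above all A-iSCs, and the ratio of the group means was 53.2. The NPC suspensions lay on either side of the spheres, with 7.10, 8.09 and 8.73 FPKM in P0-NPCs and 0.645, 0.547 and 0.753 FPKM in P56-NPCs. The P56-NPC values rest on 29 to 41 fragments per sample, above the floor. No neighbouring groups overlapped in this order.

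Biglycan is a chondroitin or dermatan sulfate proteoglycan that also signals through Toll-like receptors when it is released from the matrix. Bgn measured 73.0, 66.6 and 69.8 FPKM in ASTs and 7.997, 10.9 and 6.51 FPKM in A-iSCs, a ratio of group means of 8.25. Values in P0-NPCs were 12.05, 11.2 and 13.1 FPKM, just above the highest A-iSC sample. P56-NPCs were lowest at 1.33, 1.01 and 1.85 FPKM. The closest groups were therefore A-iSCs and P0-NPCs, which were separated by 0.287 FPKM between the highest and the lowest sample.

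Osteoglycin, also called mimecan, is a small keratan sulfate proteoglycan of bone and vessel walls. Ogn measured 25.8, 22.9 and 26.3 FPKM in ASTs and 5.36, 3.999 and 4.88 FPKM in A-iSCs, 5.27 times lower by the group means. In P0-NPCs it stood at 9.73, 10.03 and 11.4 FPKM, and in P56-NPCs at 1.89, 1.19 and 3.43 FPKM. P56-NPCs replicate 3 was the highest sample of its group, and it still lay below the lowest A-iSC sample.

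Prelp, which anchors basement membranes to collagen through a heparin-binding end, followed another order, with ASTs above P56-NPCs, A-iSCs and P0-NPCs. It measured 68.3, 52.9 and 66.7 FPKM in ASTs, 25.4, 23.4 and 29.9 FPKM in P56-NPCs, 10.3, 14.1 and 16.5 FPKM in A-iSCs and 8.73, 7.21 and 7.04 FPKM in P0-NPCs. The 4 groups did not overlap. With scaling by library size the A-iSCs (11.37, 16.13 and 18.64) and the P56-NPCs (19.75, 17.39 and 23.06) did overlap, on the same scale of fragments per kilobase and library. Prelp was the one member that was higher in the adult than in the newborn suspension. The lncRNA Gm15851 on the opposite strand shares 350 bases of exon with it (9.68% of the exon length of Prelp), and whether the authors counted by strand is not given in the sources used here. The group means of Gm15851 were at most 0.0497 FPKM.

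Dcn, Lum and Aspn were low in both cultures and highest in P0-NPCs. Decorin, which binds collagen and TGF-beta, was at 10.99, 12.8 and 12.1 FPKM in P0-NPCs and at 1.43, 0.416 and 3.18 FPKM in P56-NPCs. In ASTs Dcn measured 0.286, 0.237 and 0.221 FPKM and in A-iSCs 0.144, 0.202 and 0.153 FPKM, which rests on 17 to 28 fragments per sample. Lumican showed the same order of the NPC groups. Lum measured 7.4997, 6.75 and 8.02 FPKM in P0-NPCs and 0.612, 0.153 and 1.34 FPKM in P56-NPCs. In A-iSCs it was at 0.162, 0.0859 and 0.137 FPKM, from 22 fragments over the 3 samples, and in ASTs at 0.0244, 0 and 0.0880 FPKM, from 5 fragments. The ASTs, A-iSCs and P56-NPCs overlapped with their neighbours in the order of Lum, although ASTs and A-iSCs did not when scaled by library size. Asporin, which binds collagen and TGF-beta as decorin does, reached 0.539, 0.292 and 0.416 FPKM in P0-NPCs, on 20 to 29 fragments per sample. Aspn stayed between 0.0179 and 0.258 FPKM in the other 9 samples, on at most 10 fragments each, and the only pair of neighbouring groups without overlap was P0-NPCs and P56-NPCs.

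P56-NPCs replicate 3 was the highest of its group for all 7 members, and as a ratio the gap was widest for Aspn, Lum and Dcn. Without it the mean of P56-NPCs was 0.923 instead of 1.68 FPKM for Dcn, 0.382 instead of 0.701 FPKM for Lum and 0.0387 instead of 0.112 FPKM for Aspn. The markers of choroid plexus (5 of 5), ependyma (5 of 5) and oligodendrocytes (6 of 6) were also highest in this sample. Their sums in samples 1, 2 and 3 were 2122, 1490 and 3174 FPKM, 318.2, 266.8 and 368.2 FPKM, and 11240, 10920 and 12480 FPKM, the same order of samples as for all members but Aspn. All 7 neuron markers were lowest there. The markers of fibroblasts were divided. Col3a1 was highest there (1.09 against 0.0822 and 0.0508 FPKM), as were Col1a1, Col1a2, Slc6a13, Twist1, Islr and Col13a1, whereas Foxc1, Thbs2 and Pdgfra were lowest. Among mural markers it was highest for Cnn1 (4.22 against 0.1895 and 0.114 FPKM), Myh11 (1.81 against 0.0303 and 0.0984 FPKM), Acta2 (14.1 against 5.22 and 3.92 FPKM), Rgs5, Vtn and Tagln, and not for Pdgfrb, Kcnj8, Abcc9 and Higd1b. The part of these cells in the members' levels was not tested.

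**Figure D1:**
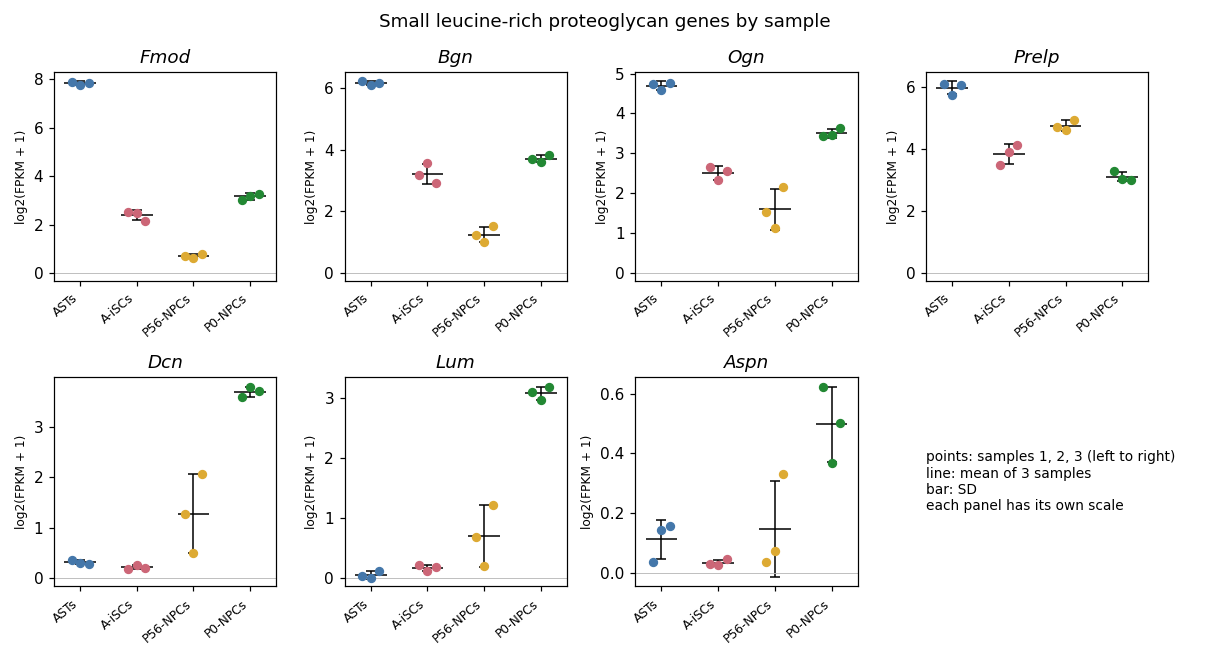
Level of each gene as log2(FPKM + 1) in every sample, 1 panel per gene with its own scale. Points are samples 1, 2 and 3 of each group, lines the group means and bars the SD (n = 3). Fmod, Bgn and Ogn are highest in ASTs and lowest in P56-NPCs, Prelp is second highest in P56-NPCs, and Dcn, Lum and Aspn are highest in P0-NPCs.

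Which member made up most of the family differed between groups. The summed FPKM of the 7 genes was 387 ± 23.2 (SD, n = 3) in ASTs, 31.5 ± 2.52 in A-iSCs, 32.9 ± 7.14 in P56-NPCs and 57.9 ± 2.54 in P0-NPCs. Fmod gave 59.2 ± 1.02% of the sum in ASTs and 13.8 ± 2.87% in A-iSCs. In A-iSCs the largest share was that of Prelp with 43.1 ± 8.25%, followed by Bgn with 26.8 ± 5.87%. In P56-NPCs Prelp alone made up 80.6 ± 6.98%. P0-NPCs had no leading gene, and Bgn (20.9 ± 0.946%), Dcn (20.7 ± 1.75%), Ogn (17.9 ± 0.7503%), Fmod (13.8 ± 1.05%), Prelp (13.3 ± 1.96%) and Lum (12.8 ± 0.708%) all gave comparable shares. Dcn and Lum gave small shares in both cultures, with group means of 0.527% and 0.416% in A-iSCs and 0.0641% and 0.00944% in ASTs. Shares are of FPKM, a level per length, and say nothing of the amount of protein.

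**Figure D2:**
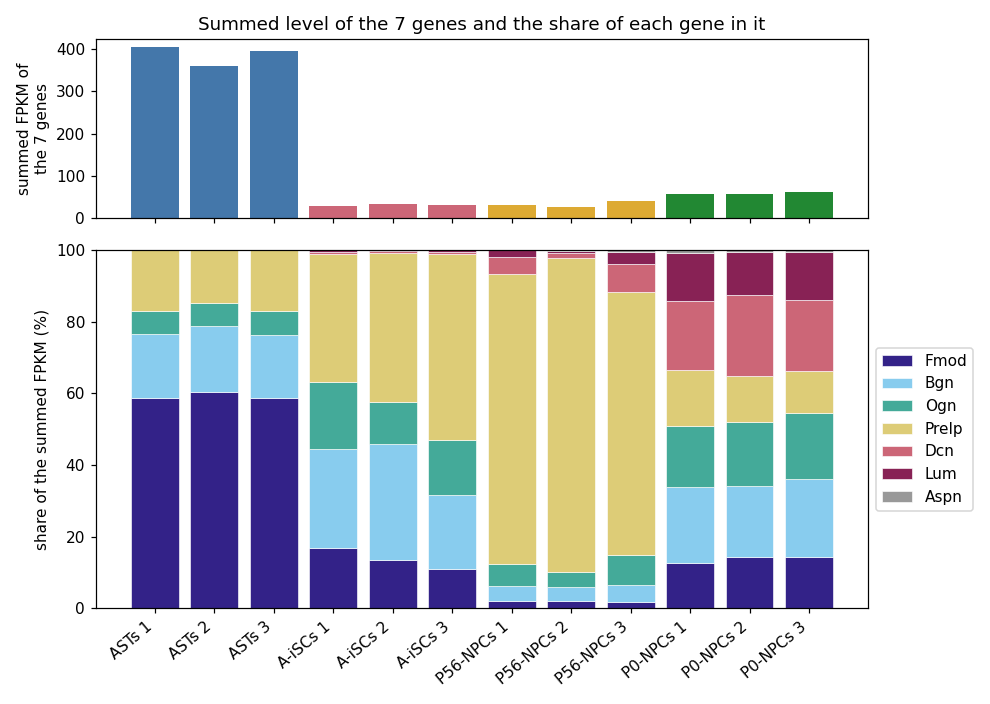
Summed FPKM of the 7 genes in each of the 12 samples (top, coloured by group) and the share of each gene in that sum in percent (bottom). Fmod fills 58.6 to 60.4% of the bar in ASTs, Prelp fills 73.5 to 87.4% in P56-NPCs, and the P0-NPC bars are divided among 6 genes.

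The first comparison, A-iSCs against ASTs, asks what 5 days as spheres changed relative to the starting monolayer. The test scale was log2(FPKM + 1), which understates the change of low genes, over genes with a mean of at least 1 FPKM in either group. Of the 7 members, 4 passed this filter, and all 4 had at least 1 FPKM in both groups. The log2 fold change was -5.45 for Fmod (SE 0.13), -2.93 for Bgn (SE 0.17), -2.18 for Ogn (SE 0.13) and -2.14 for Prelp (SE 0.19). All 4 were lower in every A-iSC sample than in every AST sample, as were 33.9% of the 14087 genes tested, while 28.8% were higher without overlap. Here and below, shares of all genes tested include genes that passed the filter through 1 group alone. Since the members were chosen with this contrast known, nothing further is read from the count. Dcn, Lum and Aspn were below the filter. Dcn was 0.167 ± 0.0308 FPKM in A-iSCs and 0.248 ± 0.0338 FPKM in ASTs, and these groups did not overlap. They did overlap when scaled by library size, with 0.2315 in A-iSCs replicate 2 above 0.2226 and 0.2179 in ASTs replicates 2 and 3, so at 17 to 28 fragments per sample the separation depends on the scaling.

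Against P56-NPCs the spheres had more Fmod, Bgn and Ogn and less Prelp and Dcn, and against P0-NPCs they had more Prelp and less Fmod, Bgn, Ogn, Dcn and Lum. Both comparisons share the A-iSC samples with the first, so the values are set side by side without a test of the members. Against P56-NPCs the log2 fold change was 1.68 for Fmod (SE 0.13), 1.97 for Bgn (SE 0.20), 0.91 for Ogn (SE 0.25), -0.91 for Prelp (SE 0.18) and -1.06 for Dcn (SE 0.35). Fmod and Dcn passed the filter through 1 of the groups alone, which favours a difference. Of the 3 members with at least 1 FPKM in both groups, 2 were higher without overlap, as were 34.7% of the 15044 genes tested, and 1 (Prelp) was lower, as were 33.8%, though not when scaled by library size. Against P0-NPCs the log2 fold change was -0.77 for Fmod (SE 0.14), -0.49 for Bgn (SE 0.17), -0.99 for Ogn (SE 0.13) and 0.74 for Prelp (SE 0.17). Of these 4 members, which had at least 1 FPKM in both groups, 3 were lower without overlap, as were 36.3% of the 15170 genes tested, and 1 was higher, as were 34.4%. Dcn and Lum passed through P0-NPCs alone. By group means Dcn was 71.8 times higher in P0-NPCs than in A-iSCs.

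Between the fresh suspensions, P56-NPCs against P0-NPCs, the members were tested. The comparison known when they were chosen, A-iSCs against ASTs, shares no sample with this one. Other results of these data may have been in view when the family was proposed, so these p-values may not be free of the choice. Age, brain region and preparation differ together between these groups and cannot be told apart. Bgn, Ogn and Dcn were lower in P56-NPCs and Prelp was higher, each with a mean of at least 1 FPKM in both groups. For Dcn this rests on P56-NPCs replicate 3, without which its mean there was 0.9235 FPKM and it would pass the filter through P0-NPCs alone. By limma with Benjamini-Hochberg adjustment over the 15394 genes tested, the log2 fold change was -2.46 for Bgn (SE 0.13, adjusted p = 1.736e-06), -1.90 for Ogn (SE 0.23, adjusted p = 0.0001429) and -2.41 for Dcn (SE 0.34, adjusted p = 0.0003382). Prelp changed by 1.65 (SE 0.11, adjusted p = 5.828e-06). These are differences beyond the spread between samples, and no sample of one group overlapped with the other. Fmod and Lum passed the filter through P0-NPCs alone, which favours a difference, and their values are a description. The log2 fold change of Fmod was -2.44 (SE 0.09) and that of Lum -2.37 (SE 0.23). The background was high, with 39.0% of all genes tested called lower and 39.7% called higher, so a call alone does not set a member apart. Prelp differed from the other 5 in its direction. The ratio of group means, P0-NPCs over P56-NPCs, was 12.3 for Fmod, 10.6 for Lum, 8.67 for Bgn, 7.14 for Dcn and 4.78 for Ogn, and for Prelp P56-NPCs were 3.42 times higher. Without P56-NPCs replicate 3 it was 19.4 for Lum, 13.4 for Fmod, 13 for Dcn, 10.3 for Bgn and 6.74 for Ogn, and Prelp was 3.18 times higher in P56-NPCs, so the order of Lum, Fmod, Dcn and Bgn depends on that sample.

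Without P56-NPCs replicate 3 the log2 fold change was -2.80 for Dcn, -2.63 for Lum and -2.18 for Ogn. No member changed direction under the other scalings. Scaling by library size moved the median of all genes in this comparison from 0.01 to -0.53 on the log2 scale, and Prelp then changed by 1.06, against -2.90 for Bgn.

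**Figure D3:**
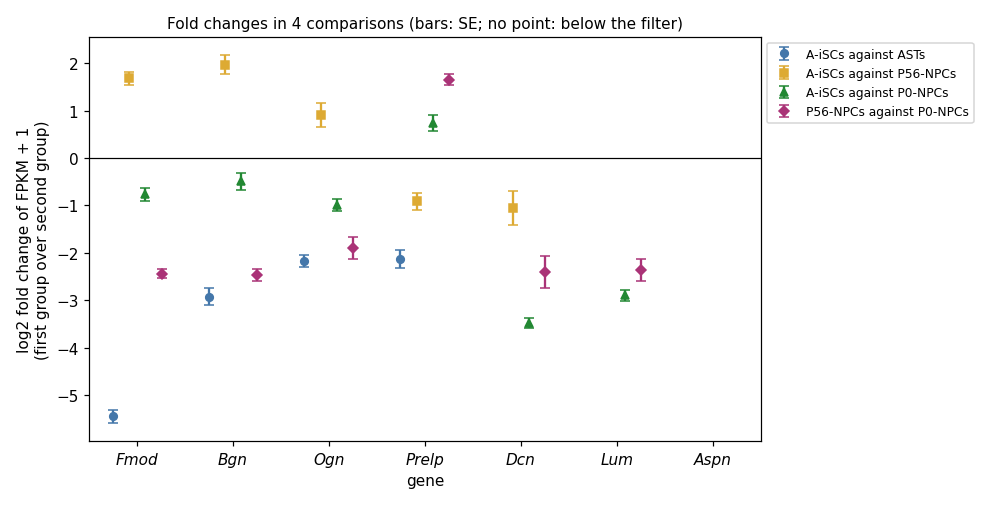
Log2 fold change of FPKM + 1 of each gene in 4 comparisons, first group over second group, with SE bars. Missing points were below the filter, as Aspn was in every comparison. Fmod has the lowest point, -5.45 in A-iSCs against ASTs, and Prelp is the one gene above 0 in P56-NPCs against P0-NPCs, at 1.65.

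Across the 12 samples the members fell into these same sets. The Pearson correlation of log2(FPKM + 1) was 0.97 between Fmod and Bgn, 0.94 between Fmod and Ogn and 0.96 between Bgn and Ogn, and it was 0.99 between Dcn and Lum, 0.91 between Dcn and Aspn and 0.92 between Lum and Aspn. Prelp stood between, at 0.60 with Fmod, 0.43 with Bgn and 0.36 with Ogn, and at -0.64 with Dcn, -0.70 with Lum and -0.49 with Aspn. Between the other sets it ran from -0.25 (Fmod with Dcn) to 0.22 (Ogn with Aspn). The 12 points come from 4 groups and share libraries and scaling, so these values describe the group means more than 12 independent samples.

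Among 13636 other protein-coding genes with a mean of at least 1 FPKM in any group, those most like Fmod were Loxl2 (r = 0.998), a lysyl oxidase that crosslinks collagen, Fkbp10 (r = 0.997), a chaperone of collagen folding, and Usp14 (r = 0.996). A correlation above 0.95 with Fmod was reached by 368 genes, so the likeness is not particular to the first 3. Bgn was most like Fam110a, Tyms and Acot9 (r from 0.992 to 0.994) and Ogn most like Adss, Ube2d3 and Nifk (r from 0.985 to 0.986). The list for Prelp was shorter, with 56 genes above 0.95 and Fez2, Smpd1 and Cops7a (r from 0.984 to 0.986) at its head. Dcn was most like Car4, Cldn3 and Slc6a20a (r from 0.984 to 0.990), and Lum most like Cgn, Gm2974 and Edn3 (r from 0.990 to 0.991). Aspn, with few fragments, had only Spdef above 0.95 (r = 0.952), followed by Scara5 and Baiap2l2.

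Neighbours on a chromosome did not share 1 pattern. On chromosome 1, Prelp was 62.6, 13.6, 26.2 and 7.66 FPKM on average, in the order ASTs, A-iSCs, P56-NPCs, P0-NPCs, and Fmod 229, 4.30, 0.648 and 7.97 FPKM. Between them they reversed the order of P56-NPCs and P0-NPCs. Optc (opticin), 2.304 kb beyond Prelp, was at 1.34, 0.0996, 0.282 and 2.01 FPKM in the same order of groups. On chromosome 10, Dcn and Lum were both highest in P0-NPCs, while Kera (keratocan), 34.17 kb beyond Lum, was listed at 0 in all ASTs, A-iSCs and P56-NPCs, and had 3 to 7 fragments per P0-NPC sample. On chromosome 13, Ogn was highest in ASTs at 25.001 FPKM, and so was its neighbour Omd (osteomodulin) at 3.27 FPKM. At the other end of the cluster Aspn and Ecm2 were highest in P0-NPCs, at 0.416 and 3.97 FPKM. Ogn and Aspn lie inside the gene Cenpp on the opposite strand, which shares 0 exon bases with Ogn and 7 with Aspn.

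**Figure D4:**
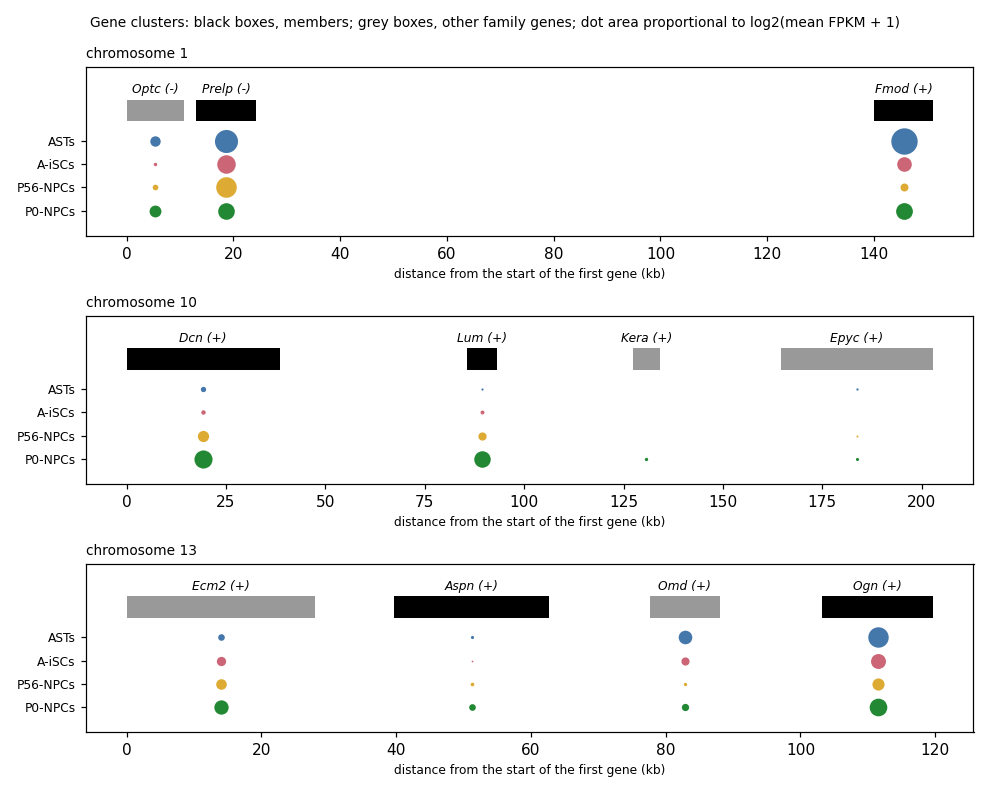
Position of the genes in 3 clusters, as distance in kb from the start of the first gene. Black boxes are the members, grey boxes other family genes, signs the strand, and the area of a dot is proportional to log2(mean FPKM + 1) of the group, with no dot at 0. Fmod and Prelp, 115.8 kb apart, differ in the order of the NPC groups, and Dcn and Lum have the same order of those groups.

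The other 11 genes of the wider family were mostly scarce, and 5 of them (Kera, Epyc, Nyx, Chad and Podnl1) stayed under 0.3 FPKM in all samples. In A-iSCs against ASTs 5 were tested, of which Omd, Optc and Chadl passed the filter through 1 group alone, which favours a difference, so that their values are a description. Tsku (tsukushi), a secreted inhibitor of BMP and Wnt signals, fell by 1.30 on the log2 scale (SE 0.12, adjusted p = 0.0001089 by limma). The log2 fold change was -1.34 for Omd, a keratan sulfate proteoglycan of bone, -1.08 for Optc and 0.54 for Chadl. Podn (podocan) fell by 0.37 (adjusted p = 0.02205), but this call was lost without A-iSCs replicate 1 and without each AST sample in turn (adjusted p up to 0.07924). In this comparison 25.2% of all genes tested were called higher and 29.6% lower.

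Chadl, chondroadherin-like, was higher in P56-NPCs than in P0-NPCs, as Prelp was. It measured 7.47, 7.80 and 7.09 FPKM in P56-NPCs, 2.13, 2.68 and 2.25 FPKM in P0-NPCs, 1.27, 1.39 and 1.26 FPKM in A-iSCs and 0.590, 0.638 and 0.553 FPKM in ASTs. In P56-NPCs against P0-NPCs it rose by 1.34 (SE 0.08, adjusted p = 3.71e-06 by limma), and Ecm2 fell by 1.05 (adjusted p = 0.0001196). Podn (-1.22) and Optc (-1.20) passed the filter through P0-NPCs alone. Tsku did not pass the test there (log2 fold change 0.08, SE 0.11, adjusted p = 0.5304), nor in A-iSCs against P56-NPCs (0.12, adjusted p = 0.338) or against P0-NPCs (0.20, adjusted p = 0.255). A-iSCs had less Chadl than P56-NPCs (-1.87, adjusted p = 3.891e-06) and less than P0-NPCs (-0.53, adjusted p = 0.00364). Ecm2 (-1.34) and Optc (-1.42) passed the filter through P0-NPCs alone, and so did Podn through A-iSCs in the comparison with P56-NPCs (0.73). Podn was lower in A-iSCs than in P0-NPCs (-0.49, adjusted p = 0.01841), a call lost without P0-NPCs replicate 1 (adjusted p = 0.06376).

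The genes around the family were taken from 8 lists with 74 genes, namely the other family genes, the enzymes that build the sugar chains, the processing enzymes, the matrix partners and the receptors. In A-iSCs against ASTs, 61 were tested, and 11 were called higher and 39 lower, beside 25.2% and 29.6% of all genes. The lists were drawn up by the role of the genes, while the whole-table result of this contrast was known and, of the 74 genes, that of Kdr. Their median log2 fold change was -0.75, against -0.06 for all genes tested. In A-iSCs against P56-NPCs, 26 were higher and 16 lower of 56, with a median of 0.20 against 0.03 and a background of 30.1% higher and 30.9% lower. In A-iSCs against P0-NPCs, 27 were higher and 19 lower of 59, with a median of 0.29 against -0.02 and a background of 31.5% and 33.6%. In P56-NPCs against P0-NPCs, 25 were higher and 27 lower of 58, with a median of -0.01 against 0.01 and a background of 39.7% and 39.0%. With scaling by library size the split was 36 higher to 10 lower in A-iSCs against P56-NPCs and 16 higher to 35 lower in P56-NPCs against P0-NPCs, where the median of all genes moved to 0.49 and -0.53. Genes that passed the filter through 1 group alone, which favours a difference, numbered 11, 15, 11 and 18 in the order of these comparisons, and of these Ecm2 in A-iSCs against P56-NPCs was not called. Among the others, 8 were called higher and 31 lower of 50 in A-iSCs against ASTs, 14 and 14 of 41 against P56-NPCs, 22 and 13 of 48 against P0-NPCs, and 21 and 13 of 40 in P56-NPCs against P0-NPCs. The medians above and the shares of all genes include genes that passed through 1 group alone. They are therefore not matched to counts of genes with at least 1 FPKM in both groups. In the last comparison 5 genes called higher (Chst11, B4galt4, Tpst1, Tgfb3 and Erbb4) had a negative log2 fold change when scaled by library size.

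The chain enzymes come first, since decorin and biglycan need them to become proteoglycans. Of 14 tested genes of chondroitin and dermatan sulfate synthesis, 8 were called lower and 1 higher in A-iSCs against ASTs (29.6% and 25.2% of all genes). Chst14, the 4-O-sulfotransferase of dermatan sulfate, measured 13.6, 12.2 and 13.2 FPKM in ASTs and 5.51, 5.11 and 4.87 FPKM in A-iSCs and fell by 1.18 (adjusted p = 8.724e-05 by limma). Chsy1, which polymerises the chondroitin chain, fell by 1.63 (adjusted p = 0.0002387), and Chst7 fell by 2.27 (adjusted p = 6.547e-06). Dse, an epimerase that turns chondroitin into dermatan sulfate, was at 5.03 FPKM on average in A-iSCs, 2.41 in P0-NPCs and 0.858 in P56-NPCs. It was lower in A-iSCs than in ASTs (-0.64, adjusted p = 0.004515) and higher than in P0-NPCs (0.82, adjusted p = 0.0002435), and the difference from P56-NPCs was 1.70, where it passed through A-iSCs alone. Between the suspensions 7 of these genes were higher and 6 lower in P56-NPCs (39.7% and 39.0% of all genes), with Csgalnact1 (1.73), Chst15 (-1.37) and Ust (1.20) changing most. In the linkage region, which ties the chain to the core protein, 3 of 6 genes were lower and 1 higher in A-iSCs against ASTs (29.6% and 25.2% of all genes), B3galt6 with the largest change (-0.84, adjusted p = 0.0005946). The calls of Fam20b, Xylt1 and Xylt2 in that list, and of Chst3 and Csgalnact2 among the chain enzymes, were lost when single samples were left out (adjusted p up to 0.137).

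Of the keratan sulfate enzymes, Chst1 and Chst2 were higher in P56-NPCs than in P0-NPCs under each scaling. Chst1, a keratan sulfate sulfotransferase, measured 36.2, 43.1 and 35.2 FPKM in P56-NPCs, 10.7, 10.5 and 9.58 FPKM in A-iSCs, 7.19, 9.73 and 6.61 FPKM in P0-NPCs and 3.76, 3.70 and 3.86 FPKM in ASTs. It rose in A-iSCs against ASTs by 1.24 (adjusted p = 5.659e-05 by limma). Of the 4 genes of this list tested in P56-NPCs against P0-NPCs, Chst1 rose by 2.16 (adjusted p = 4.52e-06) and Chst2 by 1.65 (adjusted p = 8.115e-07), beside a background of 39.7% of genes called higher. Chst5 (1.07) passed the filter through P56-NPCs alone. B4galt4 was higher with the authors' scaling (0.37, adjusted p = 0.001096) and lower with scaling by library size (-0.18, adjusted p = 0.02855). The call for Chst2 in A-iSCs against P56-NPCs (-0.74, adjusted p = 0.0005166) was lost with scaling by library size (adjusted p = 0.1114).

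Of the processing genes, Bmp1, the protease that trims the ends of biglycan and procollagen, was at 20.7 ± 4.74 FPKM in A-iSCs and 14.1 ± 1.23 FPKM in ASTs. It was higher in A-iSCs than in P56-NPCs (1.46, adjusted p = 0.000235 by limma) and P0-NPCs (0.90, adjusted p = 0.002363). Pcolce, which speeds up that protease, fell in A-iSCs against ASTs by 2.49 (adjusted p = 4.716e-05). Of the 4 processing genes with at least 1 FPKM in both groups there, 2 were lower and 1, Bmp1, was higher (29.6% and 25.2% of all genes). The change of Bmp1 was 0.50 (adjusted p = 0.04575 by limma), a call lost without A-iSCs replicate 1 or 2 and without each AST sample in turn (adjusted p up to 0.1361).

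Fibrillar collagens are the main binding partners of the family. All 9 were tested in A-iSCs against ASTs, and of the 6 with at least 1 FPKM in both groups 6 were lower (29.6% of all genes tested). The other 3 passed the filter through 1 group alone, so the median log2 fold change of all 9 (-2.11) is a description. Col1a1, a chain of type I collagen, measured 178, 131 and 164 FPKM in ASTs and 3.00, 3.54 and 2.39 FPKM in A-iSCs and fell by 5.32 (adjusted p = 3.536e-06 by limma). Col5a2, a chain of the type V collagen that starts fibrils, fell by 3.62. Between the suspensions 6 of 9 passed the filter through 1 group alone, among them Col3a1 (-4.75), Col1a1 (-4.26) and Col5a1 (-2.86), and of the other 3 genes 2 were lower and 1 higher in P56-NPCs (39.0% and 39.7% of all genes). The median of all 9 collagens there (-2.69) includes those 6 and is a description. In A-iSCs against P0-NPCs 3 were lower and 2 higher of 6 with at least 1 FPKM in both groups (33.6% and 31.5% of all genes), Col1a2 (-3.81) and Col1a1 (-3.15) among them. Col3a1 (-4.18) passed through P0-NPCs alone, and the call of Col5a3, which passed through 1 group too, was lost without A-iSCs replicate 1 or 2 and without P0-NPCs replicate 1 or 3 (adjusted p up to 0.1428). In A-iSCs against P56-NPCs 1 was higher and 3 were lower of 4 such genes (30.1% and 30.9% of all genes).

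Among other matrix and growth factor partners, Thbs1, the matricellular protein thrombospondin 1, measured 773, 604 and 792 FPKM in ASTs and 22.9, 18.7 and 15.3 FPKM in A-iSCs and fell by 5.19 (adjusted p = 4.061e-06 by limma). Tgfb1 was at 19.5, 15.2 and 9.34 FPKM in A-iSCs (14.7 ± 5.12) and at most 4.61 FPKM on average in the other groups. It was higher in A-iSCs than in P56-NPCs (1.62, adjusted p = 0.0008988 by limma) and P0-NPCs (2.24, adjusted p = 8.887e-05). The summed FPKM of 6 microglia markers was 383 to 444 in A-iSCs, 56.3 to 73.0 in ASTs, 418 to 439 in P56-NPCs and 44.7 to 56.2 in P0-NPCs. The part of microglia in the level of Tgfb1 was not tested. Eln, which encodes elastin, was highest in P0-NPCs as Dcn and Lum were, with 14.1 ± 1.26 FPKM in P0-NPCs and group means of at most 0.926 FPKM elsewhere. Of the 7 genes of this list with at least 1 FPKM in both groups, 5 were lower and 1 higher in A-iSCs against ASTs (29.6% and 25.2% of all genes). In A-iSCs against P56-NPCs 4 of 7 passed through 1 group alone, and of the other 3 genes 2 were higher (30.1% of all genes).

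The receptors were divided. Tlr2, a receptor for soluble biglycan, measured 18.5, 15.2 and 15.6 FPKM in A-iSCs and 4.55, 4.29 and 4.36 FPKM in ASTs and rose by 1.69 (adjusted p = 2.56e-05 by limma). It is a gene of microglia too, and the summed FPKM of 6 microglia markers was 383 to 444 in A-iSCs and 56.3 to 73.0 in ASTs. The part of these cells in the change was not tested. Cd44, the hyaluronan receptor, fell by 1.71 (adjusted p = 3.226e-05), from 105 to 31.3 FPKM by group means. Of the 8 receptor genes with at least 1 FPKM in both groups, 3 were higher and 4 lower in A-iSCs against ASTs (25.2% and 29.6% of all genes). In A-iSCs against P0-NPCs 3 were higher and 2 lower of 6 (31.5% and 33.6% of all genes), with Cd14 (4.05) and Cd44 (3.96) changing most, while the call of Igf1r was lost without A-iSCs replicate 1 or 2 and without each P0-NPC sample in turn (adjusted p up to 0.1614). Cd14 is a myeloid gene, and the microglia markers summed to 44.7 to 56.2 FPKM in P0-NPCs. Their part in this change was not tested.

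Markers of fibroblasts were summed beside the members, and whether ASTs or P0-NPCs had the higher sum depended on Col1a1. The summed FPKM of 10 such markers was 227 to 273 in ASTs, 50.7 to 58.9 in A-iSCs, 28.7 to 30.9 in P56-NPCs and 141 to 167 in P0-NPCs. All 10 were above the floor in every P0-NPC sample, and 8 of 10 in each of the other groups. Most of the sum came from Col1a1 in ASTs (158 FPKM by group mean) and from Pdgfra in P56-NPCs (19.1 FPKM), which was at 0.373 FPKM in ASTs. Without Col1a1 the other 9 summed to 95.19 to 97.57 FPKM in ASTs, 47.68 to 56.46 in A-iSCs, 28.06 to 30.18 in P56-NPCs and 110.5 to 128.8 in P0-NPCs, which placed P0-NPCs above ASTs. Slc6a13, a transporter of meningeal fibroblasts, was at 16.9 ± 3.28 FPKM in P0-NPCs, and in ASTs at 0.0205, 0.0340 and 0.0371 FPKM, on 1 to 2 fragments. By group means Col1a1 was 34.2 FPKM in P0-NPCs, and Col3a1 was 34.9 FPKM there and 2.39 FPKM in ASTs. Besides Col1a1, other markers were higher in ASTs than in P0-NPCs. They were Twist1 (24.9 and 2.10 FPKM), Thbs2 (24.4 and 1.29 FPKM) and, with overlap, Islr (24.8 and 20.5 FPKM). Col1a2, Foxc1, Pdgfra and Col13a1 were higher in P0-NPCs, as Slc6a13 and Col3a1 were. The 7 endothelial markers summed to 72.3 to 74.3 FPKM in P0-NPCs and at most 3.80 FPKM elsewhere, with Cldn5 at 0 in all ASTs. The 10 mural markers summed to 118 to 135 FPKM in P0-NPCs, 15.9 to 32.5 FPKM in P56-NPCs, 36.8 to 70.0 FPKM in A-iSCs and 1824 to 2281 FPKM in ASTs, where Acta2 and Cnn1 made up most of the sum and Higd1b was at 0. Rgs5 (38.6 and 0.311 FPKM by group means), Vtn (56.7 and 0.0525 FPKM), Kcnj8, Abcc9 and Higd1b were higher in P0-NPCs than in ASTs. Tagln was higher in ASTs (13.3 FPKM) than in P0-NPCs (0.433 FPKM), and Pdgfrb and Myh11 overlapped between these groups. The 5 choroid plexus markers summed to 738 to 3800 FPKM in P0-NPCs, 1490 to 3174 FPKM in P56-NPCs and at most 4.88 FPKM in the cultures. The part of these cell types in the levels of Dcn, Lum, Fmod and the other members was not tested.

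**Figure D5:**
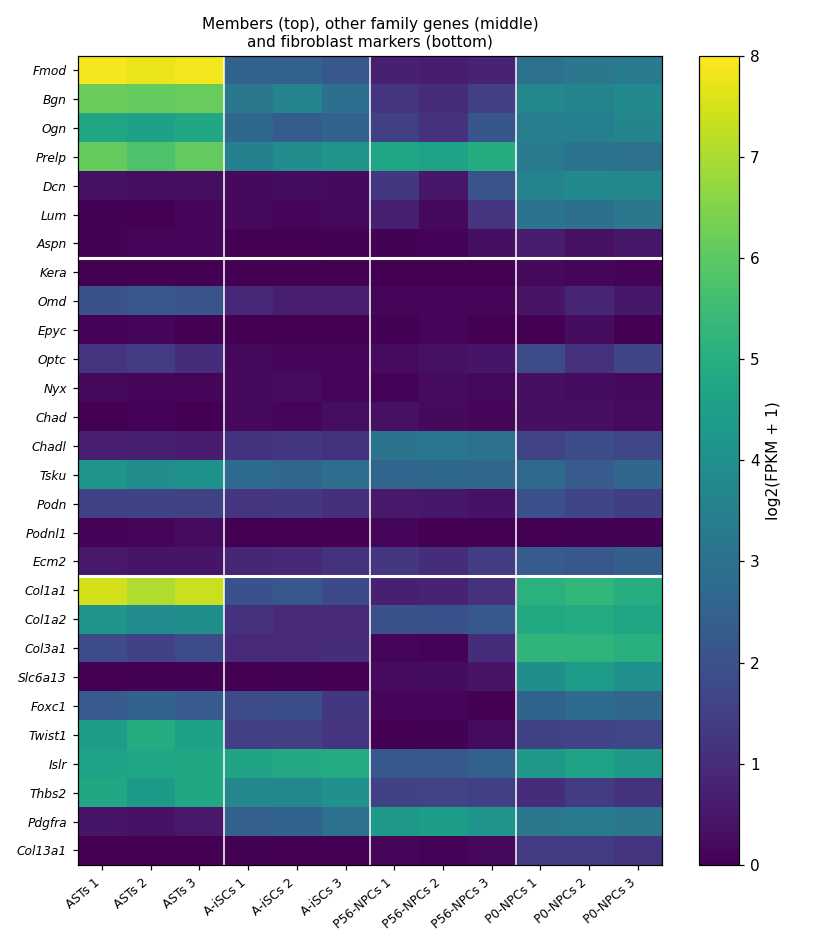
Level as log2(FPKM + 1) of the 7 members (top), the other 11 family genes (middle) and 10 fibroblast markers (bottom) in the 12 samples, from 0 (dark) to 8 (bright). Fmod, Bgn and Col1a1 are bright in ASTs, and Dcn, Lum, Col3a1 and Slc6a13 are brightest in P0-NPCs.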

How the data were processed

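RNA of 12 mouse samples, 3 in each of 4 groups, was sequenced by the authors (total RNA, paired-end Illumina libraries), and groups and replicate numbers were taken from the sample labels. The authors deposited FPKM for 55862 genes, scaled between samples. The submitters' processing notes name Bowtie 0.12.2 and mm8, whereas positions were the same for 54985 of the 55240 identifiers that are also in GENCODE M21 (GRCm38). Multiplying FPKM by gene length gave whole multiples of 1 step per sample (100% whole within 0.05 fragments), from which fragments and library sizes were recovered. No depth other than these fragments was used, and they set the precision of low values.

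Differences were fitted with limma 3.58.1 (R 4.3.3), with a trended variance, on log2(FPKM + 1) of the groups compared, for genes with a mean of at least 1 FPKM in either group. Genes with a Benjamini-Hochberg adjusted p under 0.05 over all genes tested were called. The members and lists were chosen with earlier results of these data known, among them the fold changes of Fmod and Kdr in A-iSCs against ASTs, and members were tested in P56-NPCs against P0-NPCs alone. Named genes were all 7 members, the other family genes, in each list up to 3 called genes with the largest change and genes named for a role beside a member, the nearest protein-coding genes, and the 3 genes most like each member. Ratios of group means needed at least 30 fragments in each group. Chst3, Csgalnact2, Xylt2, Igf1r and Col5a3, whose calls were lost, were named after their values were seen, as were Chst11, Tpst1, Tgfb3 and Erbb4, whose direction depends on the scaling. Alternatives were another pseudocount (0.1), other filters, library-size and upper-quartile scaling, all 4 groups in 1 model, a replicate block, limma-voom on recovered fragments and each sample left out in turn. The fit was also run on simulated data, and the outcome of that run is not reported here. Tables and plots used Python 3.11.15 (pandas 2.3.3, numpy 2.4.6, matplotlib 3.10.9).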

Additional observations from a re-analysis of the deposited data

How the results depend on the processing

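In P56-NPCs against P0-NPCs the calls of Bgn, Ogn and Prelp kept their direction and their side of the threshold under all alternatives run, leaving out each sample included. So did that of Dcn, which without P56-NPCs replicate 3 passed the filter through P0-NPCs alone. Scaling by library size reduced the pathway genes called lower in A-iSCs against P56-NPCs from 16 to 10 and those called higher in P56-NPCs against P0-NPCs from 25 to 16, with the shift of the median of all genes given above. It also turned the log2 fold change of Ecm2 in A-iSCs against P56-NPCs from -0.29 to 0.0095 and that of Tsku in P56-NPCs against P0-NPCs from 0.08 to -0.44 (limma adjusted p = 0.008025). With each sample left out in turn the value of Tsku there ran from -0.047 to 0.166, the lowest without P0-NPCs replicate 2. Neither gene was called with the authors' scaling. In P56-NPCs against P0-NPCs scaling by library size also turned Chst11 (-0.0087), B4galt4 (-0.18), Tpst1 (-0.27), Tgfb3 (-0.103) and Erbb4 (-0.030), all called higher with the authors' scaling. The cause was not tested for any of these.

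Same-numbered samples did not deviate together in every pair (residual correlations of -0.378, 0.335 and 0.427 in A-iSCs against ASTs and of at most 0.1 elsewhere), and no label says that a number marks a shared culture, animal or day, so the numbers were not used as pairs. With the replicate number as a block, 7944 instead of 7715 genes were called in A-iSCs against ASTs, 8435 instead of 9175 in A-iSCs against P56-NPCs, 9406 instead of 9876 in A-iSCs against P0-NPCs and 12076 instead of 12126 in P56-NPCs against P0-NPCs. Depth limits Aspn everywhere, and Dcn and Lum in the cultures, where a few fragments set the values. Over all genes, other samples deviated more from their group than P56-NPCs replicate 3 did. Its chi-square per degree of freedom was 6.34 and 14.8 against replicates 1 and 2. For A-iSCs replicate 3 it was 95.1 and 75.5 against replicates 1 and 2, and for ASTs replicate 2 it was 39.5 and 40.9 against replicates 1 and 3.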
